A study of Canis lupus familiaris with 6 samples.

Results

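Secreted and membrane proteins are made in the endoplasmic reticulum (ER), and 49 genes of this route were followed through the healing of drilled bone. They were taken from a list of symbols: ER chaperones and folding enzymes, transcription factors of the ER stress response, the machinery that moves proteins into the ER and trims and glycosylates them, and the coats and receptors that carry cargo between ER and Golgi. Of the 49, 48 had a probe set of their own on the array, TMED2 being the one without, and 45 passed the filter on low values (a mean level over the arrays at or above the 40th percentile of all probe sets). HYOU1, an ER chaperone, and ATF6 and CREB3L2, membrane-bound transcription factors, did not pass it. With the reported settings they enter no count of differences, but they are in the member sums set beside the cell type markers. The 45 are therefore the measured members, out of 10530 genes of 15112 that passed the same filter.

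Each newly made secretory protein is threaded through the SEC61 pore, has its signal peptide removed and glycans added, and is folded by chaperones and disulfide isomerases before COPII vesicles take it to the Golgi. COPI vesicles and KDEL receptors return escaped ER residents. Cells that lay down bone matrix push large amounts of collagen through this route, and when unfolded protein builds up in the ER, the stress response raises chaperone genes through XBP1, ATF6 and ATF4, with DDIT3 (CHOP) among its later targets.

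The material was RNA from the mandibles of beagle dogs aged 9 years. Premolars were extracted, the jaws healed for 3 months, and holes 4.5 mm wide and 8 mm deep were drilled and either filled with beta-TCP (beta-tricalcium phosphate, a resorbable ceramic bone filler) or left without it. Cylinders of the hole's size were taken at days 4, 7 and 14 in each arm, which gives 6 groups with 1 Affymetrix array each: control and beta-TCP at each day. The extraction, the healing time and the drilling were common to all groups, and the labels do not say how many dogs gave the specimens or whether an array holds RNA of 1 dog.

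With 1 array per group, no difference between 2 arrays has an error or a p-value. A level below is log2(multiple of the array's median + 1) of the probe set that stands for the gene, a difference is between 2 such log2 levels, and 2-fold is 1 log2 unit. The same counts over all 10530 genes are printed beside those of the members. Since the specimens were whole cylinders of tissue, fewer cells of a type and less RNA per cell cannot be told apart. The day 14 arrays were deposited on another scale than those of days 4 and 7, and in every comparison of day 14 with an earlier day the time and that scale cannot be told apart.

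The beta-TCP array of day 14 stood apart: its Spearman correlation over probe sets with the other 5 arrays ran from 0.723 to 0.780, against 0.832 to 0.905 among those 5. Bone identity was partial in the control and, with beta-TCP, at day 4. COL1A1, COL1A2 and SPP1 were above the array median on every array. Of the 9 bone markers with a probe set, only BGLAP, MEPE and PHEX fell below it anywhere. The late bone markers BGLAP and MEPE lay below it on all 3 control arrays and with beta-TCP at day 4. PHEX did so in the control at days 7 and 14 and with beta-TCP at day 4. With beta-TCP at days 7 and 14, no bone marker lay below it. Among 11 reference genes with a probe set, ACTB lay below the array median on both day 14 arrays and GAPDH on both day 7 arrays.

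The difference between the arms was above 0 for most members at day 4 and below 0 for most at day 14. At day 4, 39 of 45 were higher with beta-TCP than in the control, where 62.7% of all genes were, with a median difference of 0.55 against 0.17 for all genes. At day 7 the arms were level, with 22 of 45 higher (41.8% of all genes) and a median difference of -0.00 against -0.08. At day 14, 41 of 45 were lower with beta-TCP (63.1% of all genes), with a median of -0.90 against -0.23.

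Single members past 2-fold were few before day 14. At day 4, KDELR3 was the one member past 2-fold upward with beta-TCP, as were 4.52% of all genes, and DDIT3 the one past it downward, as were 3.1%. At day 7, SEC23A alone passed 2-fold upward, as did 2.96% of all genes, and no member passed it downward, as did 3.44%. At day 14, 18 of 45 were at least 2-fold lower with beta-TCP, where 15.4% of all genes were, and none was 2-fold higher, where 3.47% were.

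The scale of the arrays bears on these counts. With 90th percentile scaling the all-gene median at day 14 moved from -0.23 to 0.10 and with quantile normalization to 0.00, the member median moved to -0.46 under both, and 9 members in place of 18 were 2-fold lower under each, next to 8.05% and 10.3% of all genes. After taking off the all-gene median the count was also 9, next to 8.32%. The number higher at day 4 went from 1 to 0 under these 3 settings, with 1 lower in each; 2.24%, 2.95% and 2.15% of all genes were then higher.

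**Figure D1:**
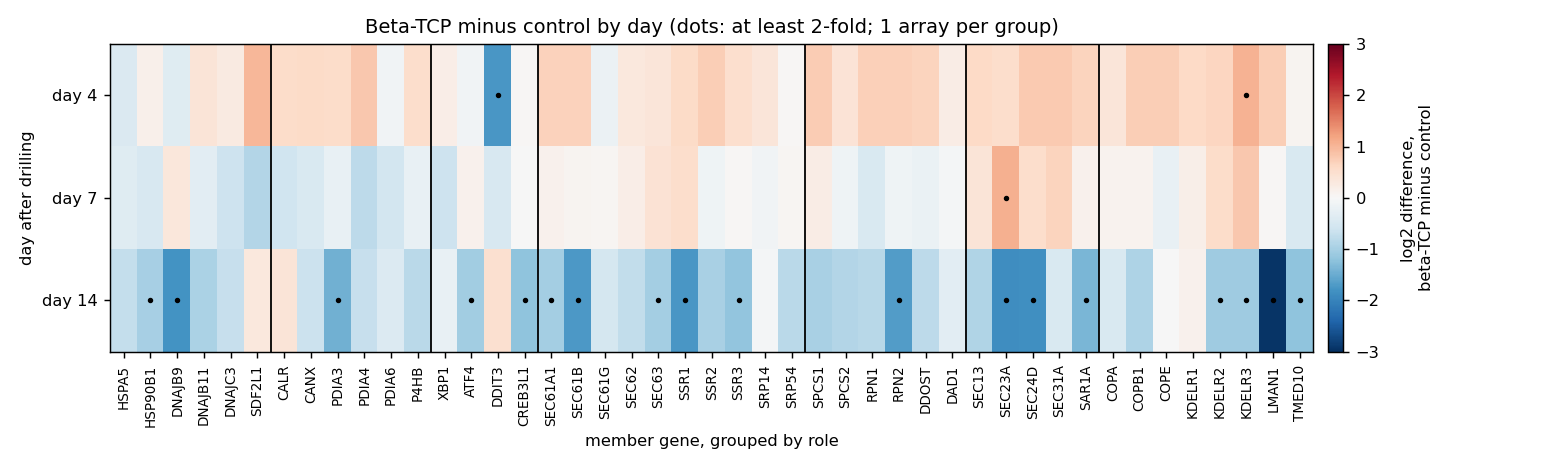
Each column is 1 of the 45 measured members, grouped by role with black lines between roles, and each row is a day; colour gives the log2 difference, beta-TCP minus control, of 1 array each, and dots mark differences of at least 2-fold. Day 4 is mostly above 0, day 7 mixed and day 14 mostly below 0, with LMAN1 lowest at -2.95.

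Of the orders of signs, 2 held most of the members between them and differed at day 7. In 18 members the difference was above 0 on days 4 and 7 and below 0 on day 14, a pattern of 20.9% of all genes, and in 18 others it was above 0 on day 4 and below 0 on days 7 and 14, as in 20.7%. KDELR1 was the one member above 0 on all 3 days (7.93% of all genes), though its other probe sets were below 0 at day 14. HSPA5 and PDIA6 were below 0 on all 3 days (14.2%), though the other HSPA5 probe set was 0.17 above at day 7 and the other 3 of PDIA6 were above 0 at day 4. DNAJB9, ATF4 and SEC61G were above 0 at day 7 only, SDF2L1 and CALR were below 0 at day 7 only, and DDIT3 was above 0 at day 14 only.

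The luminal chaperones, which bind unfolded chains inside the ER, differed little between arms at day 4 and lay lower with beta-TCP at day 7. Of the 6 measured, 4 were higher at day 4 (median 0.21), 1 at day 7 (median -0.42) and 1 at day 14 (median -0.83). HSPA5 (BiP), the main Hsp70 of the ER, stood at 9.09, 8.84 and 9.01 on the control arrays of days 4, 7 and 14 and at 8.64, 8.48 and 8.30 with beta-TCP. On this probe set the control level was nearly flat and the beta-TCP array was the lower at each day. On the other one the control stood at 7.68, 6.67 and 6.49 and beta-TCP at 7.32, 6.85 and 3.15, so there the control was highest at day 4 and beta-TCP was the higher array at day 7.

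SDF2L1, a stress-induced partner of the ER DNAJ proteins, stood at 3.18, 5.06 and 4.64 in the control and at 4.17, 4.18 and 4.95 with beta-TCP. It was 0.996 higher with beta-TCP at day 4, just under 2-fold, and 0.88 lower at day 7, the widest differences among these chaperones on both days. DNAJB9, a stress-induced cochaperone of HSPA5, stood at 4.72, 3.88 and 3.58 in the control and at 4.35, 4.21 and 1.78 with beta-TCP. The beta-TCP array of day 14 was the low one, 1.80 below its control, and a separate DNAJB9 probe set gave -1.22. HSP90B1, the Hsp90 of the ER, was 1.003 lower with beta-TCP at day 14, where DNAJB11 and DNAJC3, cochaperones of HSPA5, differed by -0.94 and -0.69.

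The lectin chaperones and disulfide isomerases showed the opposite arms at days 4 and 7. At day 4, 5 of the 6 were higher with beta-TCP (median 0.55), and at day 7 all 6 were lower (from -0.78 to -0.23, median -0.49) on the probe sets that stand for them. PDIA4, a disulfide isomerase, stood at 5.05, 6.74 and 6.82 in the control and at 5.87, 5.96 and 6.13 with beta-TCP. The control array of day 4 was the low one, and at day 7 PDIA4 was 0.78 lower with beta-TCP. On other probe sets, PDIA3, PDIA6, P4HB and CALR had a difference above 0 at day 7, so the common sign at day 7 depended on the probe set.

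PDIA3, the isomerase that works with calnexin and calreticulin, stood at 6.82, 7.64 and 7.94 in the control and at 7.37, 7.41 and 6.49 with beta-TCP. Its day 14 difference was -1.44, and -1.61 on its other probe set. CALR (calreticulin), which holds glycoproteins until they fold, stood at 5.55, 7.14 and 7.11 in the control and at 6.11, 6.53 and 7.51 with beta-TCP. It was the member with the highest day 14 minus day 4 difference in the beta-TCP arm, 1.40, next to 1.56 in the control. Its 4 probe sets did not agree: at day 14 the arms differed by 0.39 and 0.26 on 2 of them and by -0.81 and -1.27 on the others. CANX (calnexin), PDIA6 and P4HB, the latter also a subunit of collagen prolyl hydroxylase, were lower with beta-TCP at day 14 by 0.64, 0.41 and 0.80. Over all probe sets of CANX that difference ran from -0.76 to 0.42. It ran from -2.08 to -0.41 over those of PDIA6 and from -2.59 to -0.80 over those of P4HB.

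Of the transcription factors of the stress response, DDIT3 was the one that differed most between arrays of any member. DDIT3 (CHOP), a factor of prolonged ER stress, stood at 7.00, 3.15 and 2.04 in the control and at 5.24, 2.67 and 2.52 with beta-TCP. As multiples of the array median these were 127, 7.87 and 3.12 in the control and 36.8, 5.35 and 4.74 with beta-TCP. Both day 4 arrays were above all arrays of the later days, and the control array of day 4 was the highest, 1.76 above its beta-TCP counterpart. At day 14 the beta-TCP array was the higher by 0.48.

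ATF4, the factor that acts on amino acid and stress genes upstream of DDIT3, stood at 7.65, 7.39 and 7.32 in the control and at 7.55, 7.51 and 6.27 with beta-TCP. The beta-TCP array of day 14 was the low one, 1.05 below its control, and the others lay close together. XBP1, the factor that IRE1 activates by splicing, stood at 5.95, 6.82 and 6.20 in the control and at 6.16, 6.20 and 5.98 with beta-TCP. It was highest on the control array of day 7 and 0.62 lower there with beta-TCP. At day 14 the arms differed by -0.22 on this probe set and by -1.64 on the other XBP1 probe set. The array does not separate spliced from unspliced XBP1 in these files. CREB3L1 (OASIS), a membrane-bound factor known for its part in collagen secretion by osteoblasts, stood at 1.34, 1.40 and 1.55 in the control and at 1.38, 1.40 and 0.35 with beta-TCP. It was flat on 5 arrays and 1.20 lower with beta-TCP at day 14, where it lay below the array median.

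**Figure D2:**
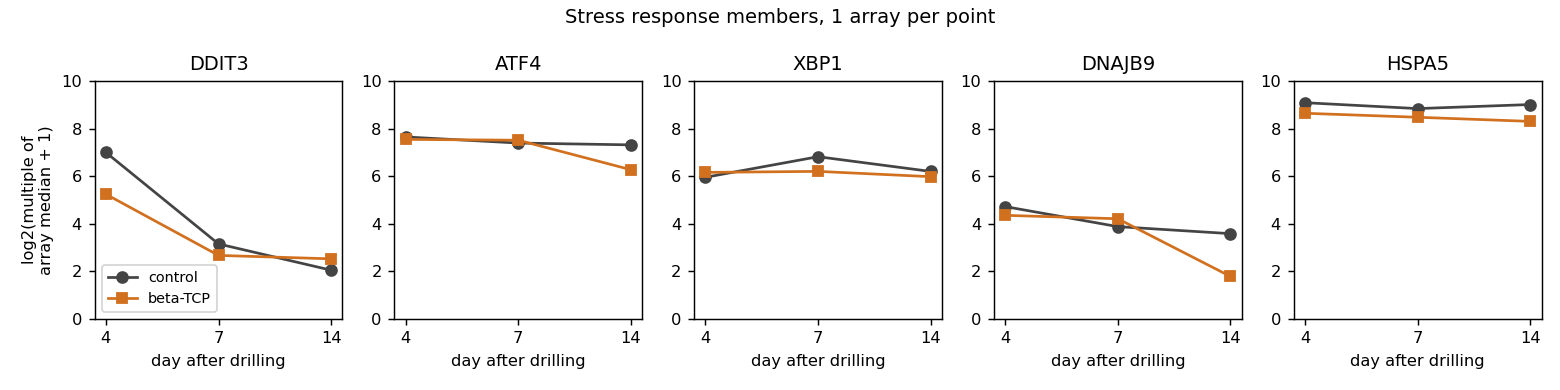
Levels of DDIT3, ATF4, XBP1, DNAJB9 and HSPA5, as log2(multiple of array median + 1), over days 4, 7 and 14, with 1 array per point; grey circles are control and orange squares beta-TCP. DDIT3 goes from 7.00 to 2.04 in the control and from 5.24 to 2.52 with beta-TCP, and DNAJB9 has its lowest point, 1.78, on the beta-TCP array of day 14.

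Targeting and translocation into the ER followed the common course. Of the 10 members, 9 were higher with beta-TCP at day 4 (median 0.43), 8 at day 7 (median 0.07), and all 10 were lower at day 14 (median -0.99), 5 of them at least 2-fold. SSR1, a subunit of the translocon-associated protein complex, stood at 4.88, 4.89 and 6.29 in the control and at 5.45, 5.42 and 4.54 with beta-TCP. The control array of day 14 was the high one, and the day 14 difference of -1.75 was -2.01 and -2.68 on its other probe sets.

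SEC61B, a subunit of the SEC61 pore, stood at 7.70, 8.21 and 9.03 in the control and at 8.40, 8.29 and 7.30 with beta-TCP, so the arms went opposite ways and differed by -1.73 at day 14. SEC61A1, the pore itself, stood at 4.99, 6.01 and 6.51 in the control and at 5.68, 6.13 and 5.49 with beta-TCP. SSR3 stood at 6.45, 6.70 and 7.01 in the control and at 6.94, 6.75 and 5.82 with beta-TCP. SSR2 stood at 6.12, 6.95 and 7.38 in the control and at 6.87, 6.84 and 6.41 with beta-TCP. In each of these subunits the highest array was the control of day 14. SEC61A1, SEC63, SSR3, SSR1 and SEC61B were the members past 2-fold at day 14. SEC62, SRP54 and SEC61G were lower by 0.73, 0.82 and 0.52, and SRP14, a protein of the signal recognition particle, differed by -0.06, and by -0.52 on its other probe set.

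The signal peptidase subunits SPCS1 and SPCS2 and the oligosaccharyltransferase subunits RPN1, RPN2, DDOST and DAD1 were all higher with beta-TCP at day 4 (median 0.69) and all lower at day 14 (median -0.85). RPN2 stood at 4.57, 5.11 and 4.93 in the control and at 5.29, 4.98 and 3.26 with beta-TCP, 1.67 lower at day 14. RPN1 stood at 5.05, 6.78 and 6.45 in the control and at 5.77, 6.31 and 5.62 with beta-TCP. SPCS1 stood at 6.84, 7.59 and 8.23 in the control and at 7.61, 7.81 and 7.27 with beta-TCP. RPN2 was the one of the 6 past 2-fold, on the low beta-TCP array of day 14. One RPN1 probe set had a day 14 difference of 0.08, and a further one of -2.28, so the size of its difference was not fixed by these probe sets.

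The COPII coat, which buds vesicles from the ER, was higher with beta-TCP in 5 of 5 members at day 4 (median 0.66) and at day 7 (median 0.53), and lower in 5 of 5 at day 14 (median -1.36), 3 of them at least 2-fold. These counts are on the probe sets that stand for the members. On other probe sets SAR1A was as low as -0.30 at day 4 and -0.10 at day 7, and SEC31A -0.26 at day 4. SEC23A, an inner coat protein needed for collagen export, stood at 5.33, 5.04 and 6.77 in the control and at 5.85, 6.12 and 4.92 with beta-TCP. At day 7 it was 1.08 higher with beta-TCP, and 1.10 on its other probe set. At day 14 it was 1.85 lower, but 0.24 lower on that other probe set.

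SEC24D, the cargo-binding coat protein also tied to collagen export, stood at 4.99, 5.43 and 6.02 in the control and at 5.78, 5.95 and 4.18 with beta-TCP. It lay higher with beta-TCP at days 4 and 7 and 1.84 lower at day 14. SEC31A, of the outer coat, stood at 5.21, 5.93 and 7.24 in the control and at 5.99, 6.59 and 6.79 with beta-TCP. On the probe set that stands for it, SEC31A was higher on each later array of both arms. Its 2.03 between days 14 and 4 in the control was the highest such difference of any member. Over its other probe sets that difference was as low as 0.04. The beta-TCP difference between days 14 and 7 was there as low as -0.85. SAR1A, the GTPase that starts the coat, and SEC13, of the outer coat, were 1.36 and 0.90 lower with beta-TCP at day 14. On another probe set SAR1A differed by -0.08, and SEC13 by -1.76.

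The COPI coat and cargo receptors were higher with beta-TCP in 8 of 8 members at day 4 (median 0.69) and in 6 at day 7 (median 0.10), and lower in 7 at day 14 (median -0.99), 4 of them at least 2-fold. KDELR3, a receptor that returns KDEL-tagged ER residents, stood at 6.11, 6.71 and 7.97 in the control and at 7.15, 7.51 and 6.90 with beta-TCP. It was 1.05 higher with beta-TCP at day 4 and 1.07 lower at day 14. Its relative KDELR2 differed by 0.64 and -1.06 on those days.

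LMAN1 (ERGIC-53), the lectin that carries glycoproteins such as coagulation factors out of the ER, stood at 4.73, 5.28 and 5.65 in the control and at 5.48, 5.32 and 2.70 with beta-TCP. The day 14 difference of -2.95, or 7.72-fold on the scale that includes the pseudocount of 1, was the widest between the arms on any day among the probe sets that stand for members. It rests on 1 probe set, and a second HSPA5 probe set reached -3.33. TMED10, a cargo receptor of the p24 family, was 1.22 lower at day 14, COPB1 and COPA of the COPI coat 0.93 and 0.45 lower, and COPE of the same coat differed by -0.01, but by -1.04 on its other probe set.

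**Figure D3:**
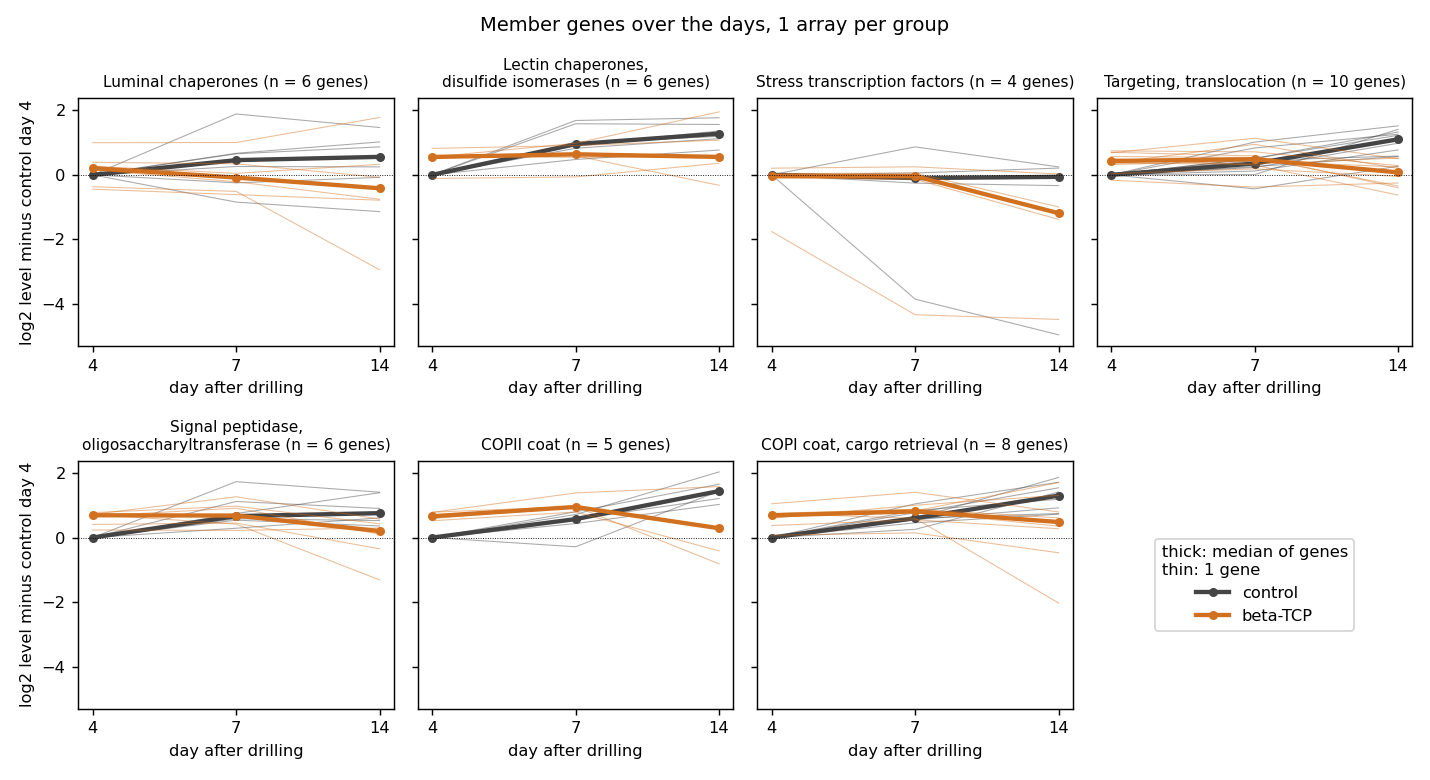
Levels of the 45 measured members by role, each as the log2 level minus that gene's control level at day 4, over days 4, 7 and 14; thin lines are genes, thick lines with points are medians, grey is control and orange beta-TCP, with 1 array per group and day. Medians of the control lie highest at day 14 for the translocation, COPII and COPI groups, and those of beta-TCP turn down between days 7 and 14.

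The arms also parted over time. In the control, 24 of 45 members were at least 2-fold higher at day 14 than at day 4, where 18.6% of all genes were, and 2 were at least 2-fold lower (DDIT3 and DNAJB9), where 7.81% were. The median was 1.03 against 0.27 for all genes. All 5 COPII members were past 2-fold, as were 5 of 6 lectin chaperones and isomerases. With beta-TCP, 1 member (CALR) was 2-fold higher, where 9.72% of all genes were, and 9 were 2-fold lower, where 18% were, with a median of -0.28 against -0.09. These comparisons share arrays with those between the arms.

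By step, between days 4 and 7, 7 of 45 members were at least 2-fold higher in the control (15.9% of all genes) and 1, DDIT3, was lower (4.73%). Between days 7 and 14, 5 were higher (4.19%) and 1, again DDIT3, was lower (6.29%). With beta-TCP, none was 2-fold higher between days 4 and 7 (4.87%) and DDIT3 was lower (2.58%), while between days 7 and 14 none was higher (4.82%) and 7 were lower (16.6%). In the control, 31 members lay higher at each step, as did 29.1% of all genes, and DNAJB9, ATF4 and DDIT3 lay lower at each step, as did 15.7%. With beta-TCP, 7 lay higher at each step (22.9% of all genes) and 12 lower (26.2%). The control array of day 14 held the highest level for 32 of 45 members, and for 22% of all genes, and the beta-TCP array of day 14 the lowest for 17, and for 33.8%.

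The control counts over time depended on scale and probe set. For day 14 minus day 4 in the control, 13 members higher and 2 lower passed 2-fold with 90th percentile scaling (9.69% and 12.5% of all genes), and 9 higher and 2 lower with quantile normalization (12% and 9.9%). In the beta-TCP arm the counts were 4 higher and 5 lower, and 2 higher and 8 lower, under the same settings (16.2% and 14.1%, and 15.7% and 14.4%, of all genes). Between days 4 and 7 in the control, both settings gave 4 higher and 2 lower. Between days 7 and 14 with beta-TCP they gave 3 higher and 4 lower, and 3 higher and 5 lower. The shares of all genes are not given for these single steps, so these counts are not set against them. Of 36 members with several probe sets above the filter, 16 had probe sets that differed in sign for day 14 minus day 4 in the control, as did 41.3% of the 5188 genes with several. COPE, RPN1 and SSR1 were at least 2-fold higher on every one of theirs, as were 5.01% of those genes.

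**Figure D4:**
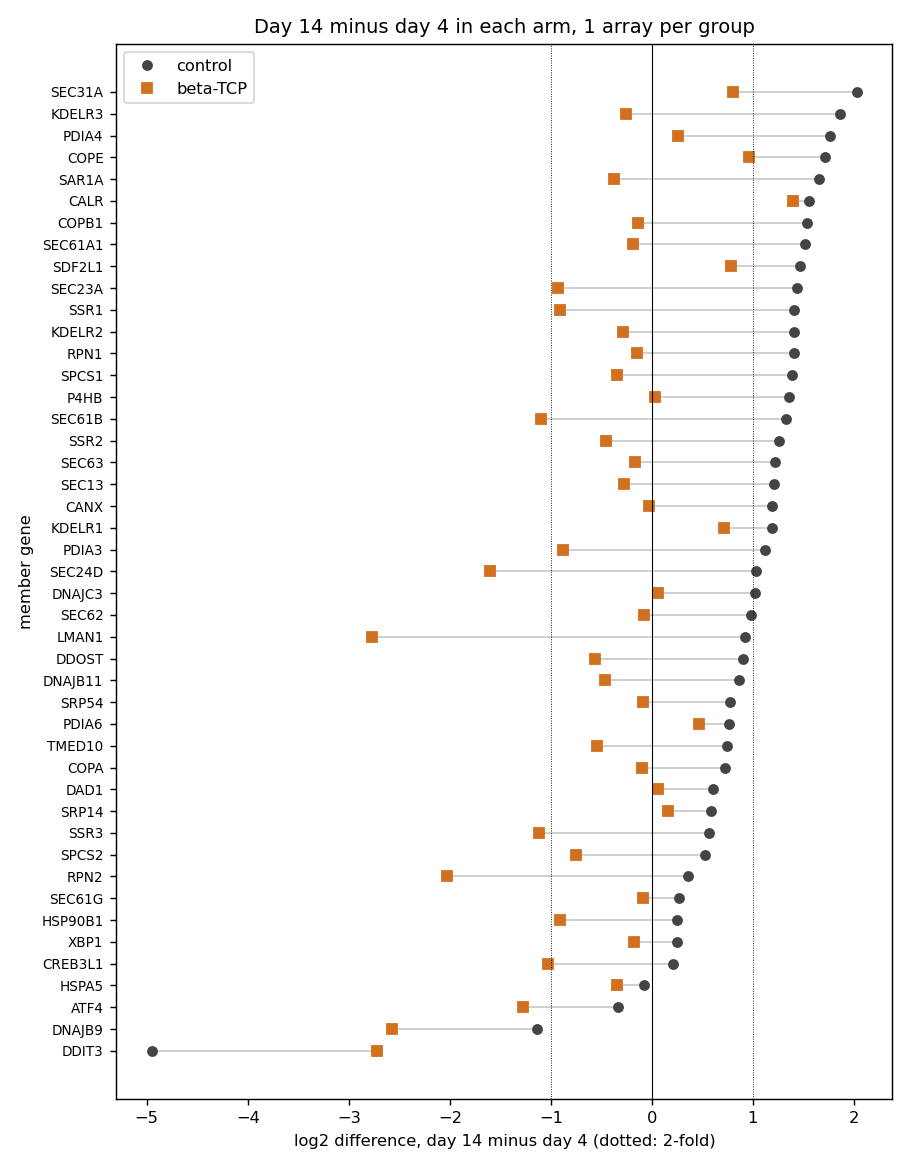
Log2 difference between days 14 and 4 for each of the 45 measured members, sorted by the control value; grey circles are control and orange squares beta-TCP, 1 array per group and day, with dotted lines at 2-fold. SEC31A is highest in the control at 2.03 and DDIT3 lowest at -4.95, and LMAN1 is lowest with beta-TCP at -2.77.

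Days and arms were tested together with limma, in an additive fit of day and arm on all 6 arrays, adjusted by Benjamini-Hochberg over 10530 genes. This fit had 2 residual degrees of freedom and took the beta-TCP difference as the same on every day, which the signs by day did not show. With 1 array per arm and day, its SE does not separate spread between specimens from a beta-TCP difference that changes over the days. A difference between days cannot be told apart from one between the specimens taken on those days. For beta-TCP minus control, 0 members passed an adjusted p of 0.05, 0 of all genes did (0%), and at an unadjusted p under 0.05 there were 0 members and 513 genes (4.87%). Over the other settings, Cfa probe sets alone gave 6 genes and taking off the all-gene median 3. Leaving out the pair of arrays of day 4, 7 or 14 gave 17, 29 and 220 genes for the same contrast, with 0 members in each. Between days 7 and 14, 0 members passed, of 0 genes in all (0%), with 1 member and 1025 genes (9.73%) at the unadjusted threshold.

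With the reported settings, DDIT3 was the one member that passed in any contrast. DDIT3 has 1 probe set, of the CfaAffx type, so no other probe set stands beside its fall. It fell by 3.21 (SE 0.50) between days 4 and 7, with an adjusted p of 0.0245 in limma, where 50 genes passed (0.475%), and was lower in both arms. It fell by 3.84 (SE 0.50) between days 4 and 14, with an adjusted p of 0.00289 in limma, where 518 genes passed (4.92%), again in both arms. Over the alternative settings the first adjusted p ran from 9.17e-14 to 0.423 and was lost with pseudocounts of 0.25, 4 and 16, with no filter, when probe sets were averaged for each gene and with CfaAffx probe sets alone. The second ran from 1.61e-09 to 0.165 and was lost with pseudocounts of 4 and 16 and with no filter.

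DNAJB9 came next between days 4 and 14 at -1.86 (SE 0.49; limma adjusted p = 0.0563), followed by CALR at 1.48 (SE 0.41; limma adjusted p = 0.0658), COPE at 1.34 (SE 0.40; limma adjusted p = 0.0774) and SEC31A at 1.42 (SE 0.42; limma adjusted p = 0.0777). None of these 4 passed.

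The array holds 2 types of probe set, named Cfa and CfaAffx in the files. The members had 75 Cfa and 41 CfaAffx probe sets, and 38 of the 45 measured members stood on a Cfa probe set. DDIT3, CREB3L1, SEC61G, SSR3, DDOST, SEC24D and LMAN1 stood on a CfaAffx one. At day 14 the types gave the same direction and different sizes. Among 26 members with both types above the filter, the median beta-TCP minus control difference was -0.75 on Cfa and -1.50 on CfaAffx, the CfaAffx value was the lower in 22 of 26, and 8 members were 2-fold lower on Cfa and 17 on CfaAffx, 5 of them on both.

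The gap between types was not limited to the members. Over 3748 genes with both types the medians were -0.21 and -0.58, with CfaAffx the lower in 67.5%. In 23 of the 26 members both types were below 0. HSPA5 was 0.71 lower on Cfa and 3.33 lower on CfaAffx, and P4HB 0.80 and 2.59 lower. SEC23A ran the other way, with 1.85 and 0.24 lower, and SPCS1 was 0.96 lower on both. KDELR1 and SDF2L1 were above 0 on Cfa, at 0.12 and 0.31, and below 0 on CfaAffx, at -1.63 and -1.20, and SEC61G was 0.34 on Cfa and -0.52 on CfaAffx.

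At days 4 and 7 the types lay closer, with medians of 0.52 on Cfa and 0.46 on CfaAffx at day 4, and -0.02 and 0.20 at day 7. Counting every member probe set above the filter, 29 of 71 Cfa probe sets were at least 2-fold lower with beta-TCP at day 14, where 12.5% of all Cfa probe sets were, and 24 of 35 CfaAffx probe sets, where 20.6% were. For day 14 minus day 4 in the control, the 26 members had a median of 0.98 on Cfa and 0.30 on CfaAffx, with 13 and 4 at least 2-fold higher, next to 20.4% of all Cfa and 8.79% of all CfaAffx probe sets. In the beta-TCP arm the medians were -0.15 and -1.54, with 1 and 19 at least 2-fold lower, next to 15.2% and 28.4% of all probe sets of each type, and CfaAffx was the lower type in all 26. Over the 3748 genes CfaAffx was the lower in 72.1% for the control and in 75.6% for beta-TCP, where the medians were 0.02 on Cfa and -0.79 on CfaAffx. The part that probe type or RNA quality plays in these differences was not tested.

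**Figure D5:**
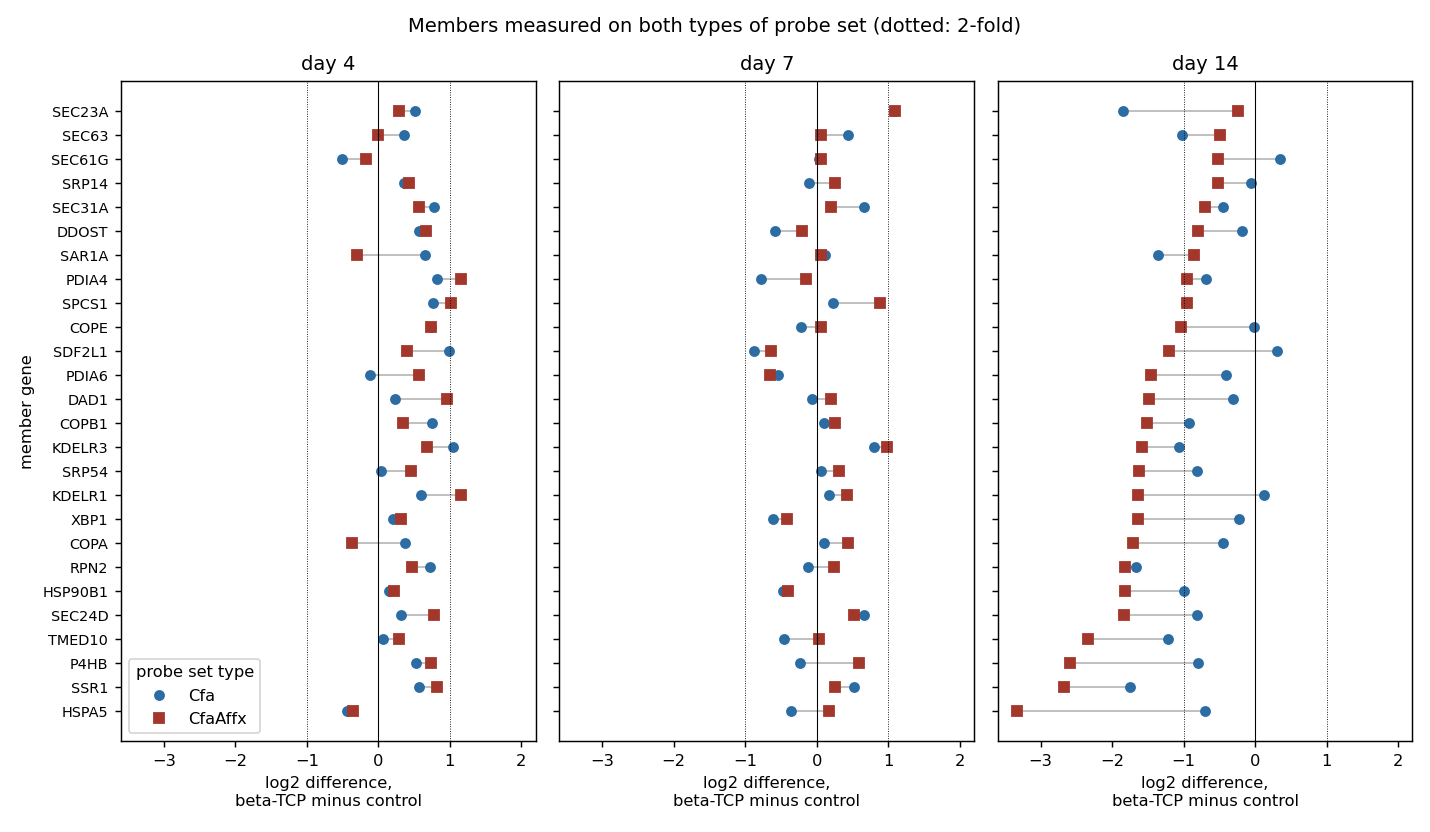
Beta-TCP minus control on a log2 scale for the 26 members with both types of probe set, in 1 panel per day; blue circles are Cfa, red squares CfaAffx, grey lines join the types of a gene and dotted lines mark 2-fold, with 1 array per group. At day 14 CfaAffx lies below Cfa in 22 of 26 members, with HSPA5 the farthest at -3.33 against -0.71.

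Within the 36 members with several probe sets, 29 were lower with beta-TCP at day 14 on every one of them, as were 44.2% of the 5188 genes with several. DNAJB9, HSP90B1, KDELR2, KDELR3, PDIA3, SSR1, SSR3 and TMED10 were at least 2-fold lower on each, as were 4.57% of those genes. Signs differed in CALR, CANX, COPA, KDELR1, RPN1, SDF2L1 and SEC61G, 7 of the 36, and in 44.9% of those genes. At day 4, 29 of the 36 were higher on every probe set, as were 48.7%.

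Opposite courses in the arms past 2-fold were seen in few members. Between days 4 and 14, SEC61B and SEC24D were at least 2-fold higher in the control and at least 2-fold lower with beta-TCP, as were 1.12% of all genes, and between days 7 and 14 SEC23A was, as were 0.75%. Between the arms, KDELR3 passed 2-fold upward with beta-TCP at day 4 and downward at day 14, as did 1.24% of all genes, and SEC23A at days 7 and 14, as did 0.845%. No test of these differences was possible with 1 array per group.

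The wider pathway was followed in 102 further genes, of which 93 had a probe set and 87 passed the filter. At day 4, 70 of 87 were higher with beta-TCP (median 0.37), against 62.7% of all genes, and 3 passed 2-fold upward and 4 downward, against 4.52% and 3.1%. At day 7 the median was -0.04, and 0 passed it upward and 2 downward, against 2.96% and 3.44%. At day 14 the median was -0.72, and 1 passed it upward and 28 downward, against 3.47% and 15.4%. Between days 14 and 4 in the control, 27 were 2-fold higher and 6 lower, against 18.6% and 7.81%, and with beta-TCP 7 were higher and 22 lower, against 9.72% and 18%.

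Translocation and glycosylation genes outside the list lay lower with beta-TCP at day 14 in 18 of 18, and COPI and cargo receptor genes in 19 of 19, 8 and 10 of them at least 2-fold, where 63.1% of all genes were lower and 15.4% at least 2-fold lower. The stress sensors and targets had a median of -0.10 there, with 4 of 9 higher. In the limma fit, COPZ2 rose and ERO1A, ERO1B, SEC16A and SEC24A fell between days 4 and 14 among these 87, 5 of 87 next to 4.92% of all genes, with 0 in the other contrasts.

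PPP1R15A (GADD34), a phosphatase subunit that ends the translation block of the stress response, stood at 8.55, 6.84 and 5.97 in the control and at 6.61, 5.95 and 6.92 with beta-TCP. Its differences of -1.94 at day 4 and 0.95 at day 14 had the signs of those of DDIT3. Other stress targets did not share the sign at day 14: ATF3 and CHAC1 lay below the array median on the beta-TCP array and not on the control. ERO1A, the oxidase that recharges disulfide isomerases and is also raised by hypoxia, stood at 6.15, 4.44 and 3.98 in the control and at 4.80, 3.23 and 1.57 with beta-TCP, lower with beta-TCP on each day and by 2.41 at day 14.

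COPZ2, a COPI subunit, was 1.51 higher with beta-TCP at day 4 and 0.998 higher at day 7, just under 2-fold. ERP29, an ER folding factor, was 1.18 higher at day 4, and SYVN1, the ubiquitin ligase of ER-associated degradation, 1.65 lower. At day 7, SEC16A, which marks ER exit sites, was 0.80 higher, and EDEM1, which directs glycoproteins to degradation, 1.77 lower, next to -1.22 for ERO1A. At day 14, SEC24C of the COPII coat was 1.01 higher and ARF4, a GTPase of the Golgi, 2.63 lower.

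Marker levels of several cell types are set beside those of the members here. Each sum runs over all genes of a list with a probe set, also those that did not pass the filter, while measured genes are those that passed it. For the members that is 48 genes. The sums hold 5 osteoclast, 5 adipocyte, 7 neutrophil, 5 epithelial and 6 plasma cell genes. As sums of multiples of the array median, the 7 of 7 measured fibroblast markers (POSTN, DCN, LUM and others) stood at 962, 2031 and 3330 in the control and at 1566, 2193 and 3263 with beta-TCP. They rank the control arrays as the members do, while at day 14 the arms differed by little in the fibroblast sum and the member sum was 6647 in the control and 3692 with beta-TCP. The 9 osteoblast and bone markers with a probe set summed to 1839, 2464 and 2721 in the control and to 2030, 2579 and 4684 with beta-TCP. At day 14 their sum was thus higher in the arm where the members were lower. Their median level there was 3.81 in the control and 4.80 with beta-TCP, but the upper quartile was 7.48 and 7.28.

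The osteoclast list, with 4 of 7 markers measured and CALCR below the array median on all 6 arrays, summed to 433, 2195 and 785 in the control and to 573, 1127 and 1496 with beta-TCP. The 6 of 6 endothelial markers summed to 70.9, 370 and 248 in the control and to 144, 255 and 355 with beta-TCP, and the 7 of 7 macrophage markers to 261, 486 and 211 and to 212, 260 and 270. By these sums the control was the higher arm at day 7 and beta-TCP at day 14 in all 3 lists. The median level of the macrophage markers at day 14 went the other way, at 5.02 in the control and 3.73 with beta-TCP. The adipocyte list, with 4 of 5 measured, summed to between 4.27 and 49.4.

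The neutrophil list, with 6 of 9 markers measured and MPO below the array median on all 6 arrays, summed to 1841, 1457 and 307 in the control and to 979, 977 and 114 with beta-TCP. Like DDIT3, it was highest on the control array of day 4. The epithelial list, with 3 of 7 measured, summed to 76.3 on that array and to between 2.27 and 13.3 on the other 5. Of the plasma cell list, whose cells are rich in ER, 3 of 9 were measured, CD79A was below the array median on all 6 arrays, and the sums ran from 8.48 on the beta-TCP array of day 14 to 63.3 on the control array of day 7. The part of these cell types in the member levels was not tested.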

How the data were processed

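The deposited values come from 6 Affymetrix canine arrays, 1 per group, hybridised with biotinylated RNA made from 100 ng of total RNA, per the labels' protocols. From the values, the authors' deposited signal of days 4 and 7 was divided by each array's median (medians 1.00, lowest value 0.01), and the deposited intensity of day 14 was not (medians 12.0 in the control and 6.2 with beta-TCP). The software that made them is not given in the sources used here, and log2 values were computed here, not by the authors.

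Each array was divided by its median over 42860 probe sets and log2(value + 1) was taken. Probe sets were named from the platform annotation (29254 with 1 gene, 439 with several, 13167 with none), and those with several were not used. As in an earlier treatment of these data, 90 pairs of probe sets whose names differ in the _a_at and _at endings alone (180 probe sets, none of a member) were left out. A gene was represented by its probe set with the highest mean, and genes below the 40th percentile of probe set means (0.70) were dropped. The limma fit (limma 3.58.1, R 4.3.3) was tested on simulated data. Other steps used Python 3.11.15 and pandas 2.3.3.

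The members and all gene lists were chosen with earlier results of these data known. Every member is named. Within each role, the members with the widest difference at each day and between days 14 and 4 in each arm have all 6 values given, as has any past a fit's threshold, and so do a few others. Of the wider pathway, the 2 highest and 2 lowest at each day are named, with those past a fit's threshold. Alternatives were the scaling, the pseudocount, the filter, the choice and type of probe set, the 90 pairs and leaving out 1 day's pair of arrays. The arrays' number limits the precision. No sequences are printed and promoters were not analysed here.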

Additional observations from a re-analysis of the deposited data

Results flagged for a closer look

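In 4 members, 2 comparisons of the same kind went opposite ways by at least 2-fold. None of these differences was tested, since each rests on 1 array per group. Between days 14 and 4, SEC61B was 1.33 higher in the control and differed by -1.10 with beta-TCP, and SEC24D by 1.03 and -1.60. This occurred in 2 of 45 members and in 1.12% of all genes. Between days 14 and 7, SEC23A differed by 1.72 in the control and by -1.20 with beta-TCP, as 1 of 45 members and 0.75% of all genes. SEC23A was also 1.08 higher with beta-TCP than in the control at day 7 and differed by -1.85 at day 14 (0.845% of all genes), and KDELR3 by 1.05 at day 4 and -1.07 at day 14 (1.24%). On its CfaAffx probe set, SEC23A differed by -0.24 between the arms at day 14, and between days 14 and 7 by 0.35 in the control and -0.99 with beta-TCP. Over the alternative settings that gave a value, the control difference of SEC24D stayed past 2-fold in 5 of 11 (lowest 0.55), that of SEC61B in 9 of 11 in each arm, and KDELR3 stayed past it in 6 of 12 at day 4 (lowest 0.42) and in 7 of 12 at day 14.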

How the results depend on the processing

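With 1 array per group, single-day differences have no error, and the beta-TCP array of day 14 enters every low value of that arm at that day. No paired analysis was possible because each group has 1 array and the labels carry no replicate numbers, and day is already a term of the fit. Arrays give no depth, and the members passing the filter lay well above it except CREB3L1. The causes of the changes below were not tested, beyond what a setting does by its own construction.

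Of members at least 2-fold apart, the counts moved by over 1.5 times as follows. Between the arms at day 4 the count of 2 was 1 with 90th percentile scaling, quantile normalization, a pseudocount of 16, averaged probe sets, Cfa probe sets alone and after taking off the all-gene median, and 4 with CfaAffx alone. At day 7 the count of 1 was 2 with quantile normalization and 0 with a pseudocount of 16. At day 14 the count of 18 was 9 with 90th percentile scaling, quantile normalization and the all-gene median taken off, and 8 with a pseudocount of 16. LMAN1, PDIA3, SEC24D, SEC61B and SSR1 were 2-fold lower in every alternative that gave a value. With the filter at the 60th percentile, 17 of 44 members were lower at day 14, and 18.9% of all genes. In the control, the count of 8 between days 4 and 7 was 5 with a pseudocount of 16, the count of 6 between days 7 and 14 was 3 with averaged probe sets and 1 with CfaAffx, and the count of 26 between days 4 and 14 was 15 with 90th percentile scaling, 11 with quantile normalization, 9 with averaged probe sets and 7 with CfaAffx. With beta-TCP, the count of 1 between days 4 and 7 was 0 with Cfa. The count of 7 between days 7 and 14 was 3 with a pseudocount of 16, 19 with averaged probe sets, 4 with Cfa and 20 with CfaAffx. The count of 10 between days 4 and 14 was 20 with averaged probe sets, 5 with Cfa and 23 with CfaAffx. These counts were out of 45 members with averaged probe sets, 40 with Cfa and 31 with CfaAffx, and 46 members entered with 90th percentile scaling. Between days 4 and 14 with beta-TCP, 15.2% of all Cfa and 28.4% of all CfaAffx probe sets were at least 2-fold lower. Most other counts in this paragraph have no share of all genes beside them and are not read as results about the members.

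In limma, the 1 member between days 4 and 7 was 0 with pseudocounts of 0.25, 4 and 16, with no filter, averaged probe sets, Cfa (which has no DDIT3 probe set) and CfaAffx, and 3 without the day 14 pair (CALR, DDIT3 and RPN1). Without the day 14 pair, 10.4% of all genes passed there. Between days 4 and 14 it was 3 with 90th percentile scaling (DDIT3, DNAJB9 and SEC31A), 2 with quantile normalization, 3 with Cfa (CALR, DNAJB9 and SEC31A), 5 with the all-gene median taken off (CALR, COPE, DDIT3, DNAJB9 and SEC31A), 2 without the day 7 pair, and 0 with pseudocounts of 4 and 16 and with no filter. Of all genes, 7.69% passed with 90th percentile scaling, 8.05% with quantile normalization and 10.7% with Cfa. With the all-gene median taken off 8.35% passed, and without the day 7 pair 6.71%. Over all genes, the calls for beta-TCP minus control were 0, 6 with Cfa, 3 with the all-gene median taken off, and 17, 29 and 220 without the day 4, 7 or 14 pair. Over the alternatives they ran from 0 to 1096 between days 4 and 7 (50 with the reported settings), from 0 to 879 between days 4 and 14 (518) and from 0 to 85 between days 7 and 14 (0).

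Among members past 2-fold, signs turned under an alternative for day 14 minus day 4 in 6 cases, and members under 2-fold were not followed here; over the 26 members with both types, 8 in the control and 9 with beta-TCP had opposite signs on Cfa and CfaAffx. In the control these were DNAJC3 at -0.11 and CANX at -0.023 with averaged probe sets, and SEC23A at -0.53, SAR1A at -0.40 and KDELR3 at -0.094 with CfaAffx alone. With beta-TCP, CALR was -0.51 with averaged probe sets.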
